A study of Arabidopsis thaliana with 40 samples.

Results

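The ubp12 single mutant was compared with wild type (wt) in 3 RNA-seq libraries of ubp12 and 3 of wt, which are 6 of the 12 RNA-seq libraries and 6 of the 40 samples of the series. The libraries were chosen by their genotype labels, and genes by their IDs: the 33323 nuclear IDs (AT1G to AT5G) of the 33602 IDs counted. The ubp12 plants carried ubp12-1, a T-DNA insertion allele in the Col-0 background, and the wt plants were Col-0. The series also holds 3 libraries labelled ubp13 (ubp13-3), 3 of the double mutant ubp12-1 ubp13-3 (labelled ubp12/13), and ChIP-seq data from rosettes. All RNA came from whole seedlings grown for 15 days on agar in long days and taken 6 to 8 h after lights came on, at a time that the labels do not give per library. Only 1 mutant line was sequenced, so that an effect of ubp12-1 and one of any other difference carried by that line cannot be told apart.

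UBP12 and its close homolog UBP13 are ubiquitin-specific proteases that remove the single ubiquitin which Polycomb repressive complex 1 adds to histone H2A (H2Aub1), a mark found at many genes of stress and hormone responses. In the circadian clock of Arabidopsis, the MYB-like proteins CCA1 and LHY are made around dawn and repress genes of the afternoon and evening, such as GI, LUX and FKF1, through the evening element in their promoters. Proteins of the dehydrin and late embryogenesis abundant (LEA) type protect membranes and proteins in cold and dry cells, and their genes are induced through the DRE element, bound by CBF factors in the cold, and the ABRE element, bound by factors of abscisic acid signalling.

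The libraries held 6822401 to 9109250 counts on nuclear genes in ubp12 and 6545534 to 9494373 in wt. Chloroplast and mitochondrial genes, left out here, took 0.5005% to 1.52% of the counts in ubp12 and 0.390% to 6.15% in wt, with wt replicate 3 at the upper end and the other 2 wt libraries at or under 0.684%. UBP12 (AT5G06600), the targeted gene, had 25.6, 22.9 and 27.1 CPM in ubp12, against 97.6, 99.9 and 94.8 CPM in wt (CPM, counts scaled to the TMM-corrected library size). It was 3.87-fold lower in ubp12 (log2FC -1.95 ± 0.10 (SE), adjusted p = 2.2e-05), which fits the genotype labels. The 3 wt libraries lay close together, and none of the ubp12 libraries came near them. UBP13 (AT3G11910) had 58.1, 63.2 and 61.4 CPM in ubp12, against 61.2, 62.4 and 62.9 CPM in wt, a difference within the spread of the libraries (log2FC -0.03, adjusted p = 0.926). Fold changes (log2FC, ubp12 over wt) and p-values come from the edgeR quasi-likelihood fit, with p adjusted by Benjamini and Hochberg over the 17712 genes that passed a filter (2 or more of the 6 libraries above 1 CPM). Genes are said to rise or fall where the adjusted p was under 0.05, and are called where the change was also 2-fold or more (log2FC of 1 or beyond, either way). The p-values set the difference between the genotypes against the spread between these libraries.

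The libraries held much shoot RNA and little that marks roots. The 39 photosystem and antenna genes summed to between 2.28e+05 and 2.44e+05 CPM in ubp12 and between 2.00e+05 and 2.24e+05 CPM in wt. Of 19 root markers, 3 were tested, and 10 had 0 counts in every one of the 6 libraries, among them the root hair genes COBL9, EXPA7, EXPA18 and RHD6, the endodermal gene MYB36 and the root meristem genes PLT1 and PLT2. The root list summed to 43.4 to 47.7 CPM in ubp12 and 49.0 to 53.4 CPM in wt, and most of this was SCR and SHR, which leaves use as well. The label whole seedlings therefore stands beside libraries with few or no reads of root-specific genes. The floral, meristem and seed regulators summed to 21.2 to 25.3 CPM in ubp12 and 10.6 to 19.2 CPM in wt, and none of the 6 tested passed the test. In whole tissue, more cells of a type and more RNA per cell cannot be told apart.

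Between ubp12 and wt, 83 genes were called higher (0.469% of those tested) and 38 lower (0.215%), with a median fold of 2.52 among the higher and 2.48 among the lower genes. By the adjusted p alone, 192 genes rose (1.08%) and 125 fell (0.706%). Functional groups were read from 29 lists of named genes and 28 families taken from the product names. Both were chosen with earlier results of these data known, so a ranking among them depends on that choice. In 20 of the lists and 11 of the families no member passed. Of the genes called, 24 of the 83 higher and 11 of the 38 lower were members of a list or family, beside 2590 of all 17712 genes tested. Cold and drought response proteins held the most that rose, and clock genes went in both directions. The jasmonate, rapid stress, salicylic acid and auxin lists each had 2 or 3 members that rose, beside 1.08% of all genes tested.

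Of the 29 lists, chosen with earlier results of these data known, the dehydrin, LEA and drought response list held the most genes that rose in ubp12. Of its 22 members 19 were tested, and 11 of them rose and none fell, against 1.08% and 0.706% of all genes tested. In 9 of the 11 the change also passed the fold threshold. The median log2FC of the 19 was 0.78, against a median of -0.004 over all genes tested. The 3 ubp12 libraries all lay above the 3 wt libraries in 12 of the 19 members (63.2%), where 9.89% of all genes tested did so. The genes that rose encode proteins of cold acclimation (COR15A, COR15B, KIN1, KIN2, COR413IM1, COR413-PM1, RD29A), dehydrins and LEA proteins (ERD10, LEA14), the early dehydration gene ERD7 and LTI65.

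The promoters of RD29A, COR15A and KIN2 are printed because these genes were among the members that rose at high expression, and because their windows hold the DRE core CCGAC or the ABRE core ACGTGG. Each is the 250 bases before the annotated start, 5′ to 3′ on the gene's strand, from the RefSeq copy of the TAIR10.1 genome. Capitals mark CCGAC, or its reverse complement, in RD29A (chr5:21240467-21240716, plus strand) and COR15A (chr2:17712331-17712580, minus strand), and the reverse complement of ACGTGG in KIN2 (chr5:5211469-5211718, plus strand).
RD29A: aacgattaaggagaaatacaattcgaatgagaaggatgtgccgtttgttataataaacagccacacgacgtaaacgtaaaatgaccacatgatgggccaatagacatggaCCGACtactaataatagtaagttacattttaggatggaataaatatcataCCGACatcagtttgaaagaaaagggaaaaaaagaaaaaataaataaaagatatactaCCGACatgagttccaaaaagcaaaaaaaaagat
COR15A: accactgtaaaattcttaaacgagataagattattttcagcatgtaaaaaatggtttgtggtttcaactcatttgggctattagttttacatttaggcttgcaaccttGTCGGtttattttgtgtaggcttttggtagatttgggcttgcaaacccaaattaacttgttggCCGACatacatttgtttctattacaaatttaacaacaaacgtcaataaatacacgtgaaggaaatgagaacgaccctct
KIN2: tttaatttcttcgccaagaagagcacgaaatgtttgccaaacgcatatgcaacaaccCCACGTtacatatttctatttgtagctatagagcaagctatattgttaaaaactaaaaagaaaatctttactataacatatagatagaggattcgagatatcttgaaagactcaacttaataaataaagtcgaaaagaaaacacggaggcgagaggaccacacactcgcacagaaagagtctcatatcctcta
RD29A held 3 copies of CCGAC, 140, 90 and 33 bases before the start, counted from the first base of each. CCGAC, searched on both strands, occurred in 7 of the 19 members tested (36.8%) and in 5 of the 11 that rose, beside 11.9% of the promoters of 26712 nuclear protein-coding genes. ACGTGG also occurred in 7 of the 19 and in 5 of the 11, beside 8.31% of all promoters, and in 12 of 28 clock genes tested (42.9%). Over all genes called, ACGTGG occurred in 17 of 78 called higher and in 7 of 35 called lower, and CCGAC occurred in 17 of the 78 protein-coding genes called higher and in 0 of the 35 called lower that had a promoter window. These are matches of letters, and binding was not measured.

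COR15A (AT2G42540), a chloroplast protein that protects membranes on freezing, had 158, 60.1 and 113 CPM in ubp12, against 23.3, 26.7 and 35.3 CPM in wt. Its ubp12 libraries all lay above its wt libraries but differed among themselves, with replicate 2 lowest, and it was 3.91-fold higher (log2FC 1.97 ± 0.30 (SE), adjusted p = 0.0113). Its neighbour COR15B (AT2G42530) had 97.5, 69.2 and 93 CPM in ubp12, against 27, 29.1 and 25.8 CPM in wt, again without overlap (log2FC 1.66 ± 0.14 (SE), adjusted p = 0.00089). The pair lies side by side at chr2:17710441-17712330 and chr2:17708593-17710433 and is similar in sequence, so that reads may be shared or lost between them.

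KIN2 (AT5G15970), a small hydrophilic cold-induced protein, had 201, 132 and 174 CPM in ubp12, against 33.7, 36.2 and 57 CPM in wt. It was 4.02-fold higher (log2FC 2.01 ± 0.21 (SE), adjusted p = 0.0023), and its lowest ubp12 library lay well above its highest wt library. KIN1 (AT5G15960), its tandem copy at chr5:5209717-5210826, had 18.3, 8.95 and 13 CPM in ubp12, against 2.99, 2.46 and 2.47 CPM in wt (log2FC 2.33 ± 0.28 (SE), adjusted p = 0.00291). For these similar neighbours too, the split of reads between the copies is uncertain.

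RD29A (AT5G52310, also called LTI78), a reporter of cold and abscisic acid responses, had 95.6, 65 and 61.4 CPM in ubp12, against 27.3, 23.2 and 34.4 CPM in wt. All 3 ubp12 libraries stood above the wt range (log2FC 1.40 ± 0.19 (SE), adjusted p = 0.00522). LTI65 (AT5G52300, RD29B), the neighbour of RD29A, was hardly expressed, with 1.53, 0.689 and 2.53 CPM in ubp12, against 0.213, 0.123 and 0.154 CPM in wt. It passed the filter through 2 ubp12 libraries and no wt library, its wt libraries had 3 counts or fewer each, and against that floor it was at least 4.13-fold higher in ubp12 (adjusted p = 0.0493). With any one wt library left out it missed the threshold, and without ubp12 replicate 1 or 3 it was not tested.

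COR413IM1 (AT1G29395), an inner envelope protein of the chloroplast, had 112, 107 and 106 CPM in ubp12, against 22.9, 28.8 and 45.6 CPM in wt. Here the ubp12 libraries were nearly equal, and the spread was within wt (log2FC 1.75 ± 0.20 (SE), adjusted p = 0.00238). Its plasma membrane relative COR413-PM1 (AT2G15970) had 299, 304 and 327 CPM in ubp12, against 179, 208 and 232 CPM in wt, a smaller rise (log2FC 0.59 ± 0.11 (SE), adjusted p = 0.0302). ERD10 (AT1G20450), an acidic dehydrin, had 147, 91.7 and 127 CPM in ubp12, against 46.3, 57.9 and 65.7 CPM in wt (log2FC 1.11 ± 0.18 (SE), adjusted p = 0.0131). The groups did not overlap in any of these genes. ERD7 (AT2G17840) had 62.2, 39.5 and 47.7 CPM in ubp12, against 19.3, 28.2 and 25 CPM in wt (log2FC 1.05 ± 0.18 (SE), adjusted p = 0.0184), and LEA14 (AT1G01470) had 55.7, 45.2 and 53.9 CPM in ubp12, against 30.7, 26.8 and 33 CPM in wt (log2FC 0.78 ± 0.12 (SE), adjusted p = 0.0113).

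The 8 other members tested did not pass. COR47 (AT1G20440), a dehydrin next to ERD10, had 246, 237 and 271 CPM in ubp12, against 126, 189.8 and 207 CPM in wt, without overlap (log2FC 0.53, adjusted p = 0.146). RAB18 (AT5G66400), a dehydrin induced by abscisic acid, had 77.2, 38.1 and 73.8 CPM in ubp12, against 59.1, 39.2 and 58.6 CPM in wt, with overlapping groups (log2FC 0.27, adjusted p = 0.676). RD26 (AT4G27410), a NAC factor of the drought response, had 20.1, 20.5 and 31.7 CPM in ubp12, against 17.8, 28.5 and 35.1 CPM in wt (log2FC -0.17, adjusted p = 0.812). The remaining 5, RD20, RD22, ERD14, P5CS1 and LTI30, had log2FC between 0.22 and 0.73, and their groups overlapped.

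**Figure D1:**
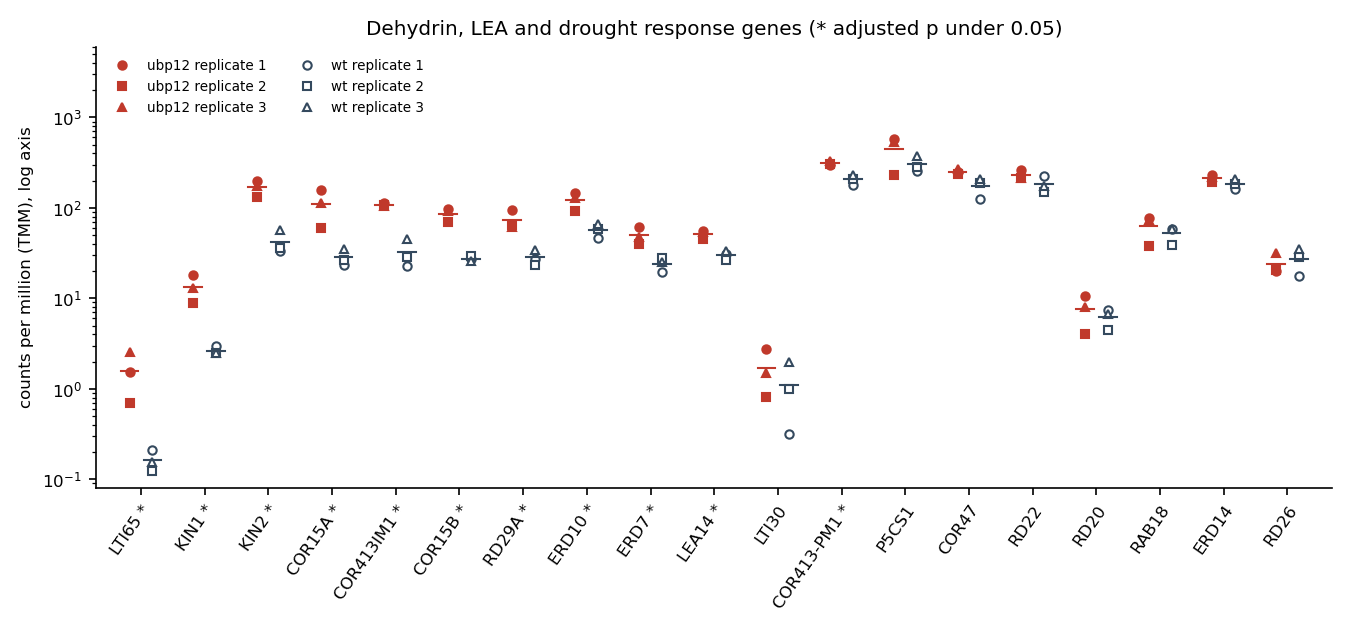
CPM (log axis) of the 19 tested dehydrin, LEA and drought response genes in each library, ubp12 (filled) left of wt (open) for each gene, with marker shapes for replicates, bars at the means and genes ordered by log2FC. The 11 genes with a star have an adjusted p under 0.05, and in each of them the 3 ubp12 libraries lie above the 3 wt libraries.

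The size of the change was uneven over the libraries. The median difference of the 19 members from the wt mean was 1.36 in ubp12 replicate 1, 0.58 in replicate 2 and 0.84 in replicate 3 on the log2 scale, with the wt libraries at -0.20, -0.09 and 0.19. Replicate 2 had the smallest change in 8 of the 11 genes that rose. Without ubp12 replicate 1, or without ubp12 replicate 3, 6 members passed, and without any of the other libraries 9 to 11 did. The 6 genes that passed whichever library was left out were COR15A, COR15B, KIN1, KIN2, COR413IM1 and RD29A.

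The CBF and raffinose list, the regulators upstream of the cold genes and the sugars made with them, had 7 of 9 tested members with a log2FC above 0, but none passed. The median log2FC was 0.95, with per-library medians of 1.35, 0.40 and 0.70 in ubp12. CBF1 (AT4G25490), a cold-induced activator that binds the DRE, had 5.48, 2.52 and 2.23 CPM in ubp12, against 0.533, 1.84 and 0.925 CPM in wt (log2FC 1.67, adjusted p = 0.124). CBF2 (AT4G25470) had 25.5, 8.84 and 10.9 CPM in ubp12, against 3.73, 10.8 and 7.09 CPM in wt, with overlapping groups (log2FC 1.10, adjusted p = 0.249). GolS3 (AT1G09350), a galactinol synthase of the cold response, had 3.73, 2.29 and 1.94 CPM in ubp12, against 0.32, 1.11 and 0.308 CPM in wt (log2FC 2.18, adjusted p = 0.0519). These transcripts were low, and in each of the 3 genes ubp12 replicate 1 was the highest of the 6 libraries. CBF1 and GolS3, 2 of the 9 tested, passed the filter on low counts through ubp12 only. The count above 0 and the median of this list therefore depend in part on that filter. The abscisic acid list, metabolism and signalling, had 0 of 20 members past the test and a median log2FC of 0.20, and 2 of the 20 passed the filter through ubp12 only.

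The clock list of 28 tested genes held 5 members that rose and 8 that fell, beside 1.08% and 0.706% of all genes tested. Its median log2FC was -0.10, close to that of all genes, with members on both sides. The ubp12 libraries were all above wt in 11 members (39.3%) and all below in 10 (35.7%), where 9.89% and 10.0% of all genes tested did so. Grouped by the time of day at which they are known to peak, a grouping made after the values were seen, 14 morning genes had a median log2FC of -0.88 with none above 0, and 10 afternoon and evening genes had a median of 0.99 with all 10 above 0. The 4 other tested members, PRR7, ZTL, LKP2 and CHE, were placed in neither group, with log2FC of -0.11, 0.03, 0.07 and 0.49, and none passed. Of the morning genes 8 fell and none rose, and of the afternoon and evening genes 5 rose and none fell.

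The promoters of CCA1 and LHY, 2 morning genes that fell, and of GRP7 and FKF1, 2 evening genes that rose, are shown for the G box and the evening element. Capitals mark CACGTG, the G box, in CCA1 (chr2:19245341-19245590, plus strand) and LHY (chr1:37872-38121, minus strand), and the evening element AAAATATCT, or its reverse complement, in GRP7 (chr2:9266558-9266807, minus strand) and FKF1 (chr1:25508389-25508638, plus strand), with source and length as before.
CCA1: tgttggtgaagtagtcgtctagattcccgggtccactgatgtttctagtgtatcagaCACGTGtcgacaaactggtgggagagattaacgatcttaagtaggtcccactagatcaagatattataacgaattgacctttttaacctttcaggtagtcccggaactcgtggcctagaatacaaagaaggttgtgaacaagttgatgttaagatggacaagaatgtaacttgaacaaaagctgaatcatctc
LHY: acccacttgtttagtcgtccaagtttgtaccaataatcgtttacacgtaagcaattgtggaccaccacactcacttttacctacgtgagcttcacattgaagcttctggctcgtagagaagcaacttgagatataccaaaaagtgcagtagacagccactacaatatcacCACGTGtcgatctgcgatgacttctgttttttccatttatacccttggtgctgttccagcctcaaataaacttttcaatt
GRP7: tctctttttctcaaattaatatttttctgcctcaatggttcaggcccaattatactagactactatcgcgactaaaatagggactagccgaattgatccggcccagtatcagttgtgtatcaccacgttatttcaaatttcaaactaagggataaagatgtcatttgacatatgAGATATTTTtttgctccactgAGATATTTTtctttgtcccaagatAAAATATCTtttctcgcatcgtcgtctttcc
FKF1: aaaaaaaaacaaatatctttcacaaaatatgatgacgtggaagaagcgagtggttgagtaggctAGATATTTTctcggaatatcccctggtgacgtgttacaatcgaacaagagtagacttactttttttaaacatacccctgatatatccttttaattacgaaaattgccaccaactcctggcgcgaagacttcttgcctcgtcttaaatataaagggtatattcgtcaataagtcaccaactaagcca
GRP7 held 3 copies of the evening element, 76, 55 and 31 bases before the start. The element occurred in 4 of the 5 clock genes that rose (FKF1, GRP7, GRP8 and LUX) and in 1 of the 8 that fell (COL2). It was also in TOC1, PRR5 and RVE7, which did not pass. In all it occurred in 8 of the 28 clock genes tested (28.6%), beside 2.40% of all promoters. Over all genes called, it occurred in 12 of 78 called higher (15.4%) and 2 of 35 called lower (5.71%). The G box occurred in 4 of the 8 clock genes that fell (CCA1, LHY, RVE1 and CDF2) and in 1 of the 5 that rose (LUX), with 8 of the 28 tested (28.6%) in all, beside 6.58% of all promoters. Over all genes called, the G box occurred in 10 of 78 called higher (12.8%) and in 4 of 35 called lower (11.4%). The ABRE core ACGTGG occurred in 3 of the 5 clock genes that rose and in 4 of the 8 that fell. CACGTG and ACGTGG overlap where a promoter reads CACGTGG, so that both counts can include the same site.

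LHY (AT1G01060), a morning repressor of evening genes, had 2.52, 3.33 and 2.53 CPM in ubp12, against 14.6, 8.61 and 11.7 CPM in wt. It was 4.15-fold lower in ubp12 (log2FC -2.05 ± 0.24 (SE), adjusted p = 0.0025), and the groups were far apart. CCA1 (AT2G46830), its partner, had 50.5, 42.6 and 54.5 CPM in ubp12, against 103, 92.1 and 110.5 CPM in wt (log2FC -1.05 ± 0.12 (SE), adjusted p = 0.00238). The highest ubp12 library of CCA1 was again below its lowest wt library.

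RVE8 (AT3G09600), a related factor that activates evening genes, had 7.56, 8.15 and 8.49 CPM in ubp12, against 18.8, 15.5 and 20.2 CPM in wt (log2FC -1.17 ± 0.14 (SE), adjusted p = 0.00331). RVE1 (AT5G17300), which links the clock to auxin and growth, had 22.9, 27.1 and 22.6 CPM in ubp12, against 38.1, 46.7 and 66.9 CPM in wt (log2FC -1.05 ± 0.19 (SE), adjusted p = 0.0217). COL2 (AT3G02380), a CONSTANS-like B-box protein, had 27.3, 29.7 and 25 CPM in ubp12, against 73.3, 52.6 and 76.3 CPM in wt (log2FC -1.30 ± 0.14 (SE), adjusted p = 0.00238). In these morning genes all ubp12 libraries lay below all wt libraries, with the larger spread among the wt libraries. The CYCLING DOF FACTOR genes, repressors of CONSTANS, fell by less: CDF1 (AT5G62430) had 34.1, 21.9 and 31.3 CPM in ubp12, against 55.2, 46 and 60.9 CPM in wt (log2FC -0.89 ± 0.16 (SE), adjusted p = 0.0271). CDF2 (AT5G39660) had 7.12, 6.66 and 7.75 CPM in ubp12, against 13, 11.4 and 14.8 CPM in wt (log2FC -0.86 ± 0.15 (SE), adjusted p = 0.0195). LNK2 (AT3G54500), a coactivator that works with RVE8, had 332, 326 and 328 CPM in ubp12, against 533, 516 and 592 CPM in wt (log2FC -0.74 ± 0.09 (SE), adjusted p = 0.00376). The 3 ubp12 libraries of LNK2 were nearly equal, and no group overlapped in these genes.

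FKF1 (AT1G68050), a blue light receptor that targets CDF proteins for degradation in the afternoon, had 21.4, 28.1 and 19.96 CPM in ubp12, against 5.55, 10.8 and 3.55 CPM in wt. It was 3.44-fold higher (log2FC 1.78 ± 0.29 (SE), adjusted p = 0.0148), with no overlap, and wt replicate 2 was the highest wt library. GRP7 (AT2G21660), an RNA-binding protein that feeds back on its own transcript, had 503, 857 and 503 CPM in ubp12, against 249.7, 328 and 242 CPM in wt (log2FC 1.19 ± 0.21 (SE), adjusted p = 0.0191). Its relative GRP8 (AT4G39260) had 429.8, 510.1 and 518 CPM in ubp12, against 242, 227 and 184 CPM in wt (log2FC 1.16 ± 0.12 (SE), adjusted p = 0.00238). In GRP7 replicate 2 was the highest ubp12 library, and in GRP8 replicate 1 was the lowest. LUX (AT3G46640), the DNA-binding part of the evening complex, had 16.8, 24.2 and 20.7 CPM in ubp12, against 12.3, 12.5 and 9.71 CPM in wt (log2FC 0.83 ± 0.16 (SE), adjusted p = 0.0346). GI (AT1G22770), a large scaffold protein of the afternoon, had 113, 119 and 114 CPM in ubp12, against 63.2, 89.9 and 67.4 CPM in wt (log2FC 0.65 ± 0.13 (SE), adjusted p = 0.0387). The groups did not overlap in either, and the fold of GI was the smallest of the genes that rose.

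Other clock genes did not pass. PRR5 (AT5G24470), an afternoon repressor of CCA1 and LHY, had 91.1, 100.3 and 65.5 CPM in ubp12, against 30.4, 59.5 and 35.8 CPM in wt (log2FC 1.03, adjusted p = 0.0539). ELF4 (AT2G40080), of the evening complex, had 4.82, 6.2 and 4.62 CPM in ubp12, against 3.09, 2.21 and 2.77 CPM in wt (log2FC 0.95, adjusted p = 0.0669). TOC1 (AT5G61380), the evening repressor of CCA1 and LHY, had 37.3, 45.1 and 45.7 CPM in ubp12, against 22.8, 35 and 27.1 CPM in wt (log2FC 0.59, adjusted p = 0.09). In each of these the 3 ubp12 libraries lay above the 3 wt libraries. Among the morning genes, PRR9 (AT2G46790) had 36.2, 27.8 and 25.5 CPM in ubp12, against 45.9, 36.5 and 52.1 CPM in wt and RVE2 (AT5G37260) had 1.31, 2.29 and 2.09 CPM in ubp12, against 3.52, 3.69 and 3.39 CPM in wt, all below wt but not past the test (adjusted p = 0.105 and 0.134). ZTL (AT5G57360), whose transcript is known to stay level through the day, had 63.8, 64.5 and 63.3 CPM in ubp12, against 59.1, 61.6 and 67.5 CPM in wt (log2FC 0.03, adjusted p = 0.933).

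**Figure D2:**
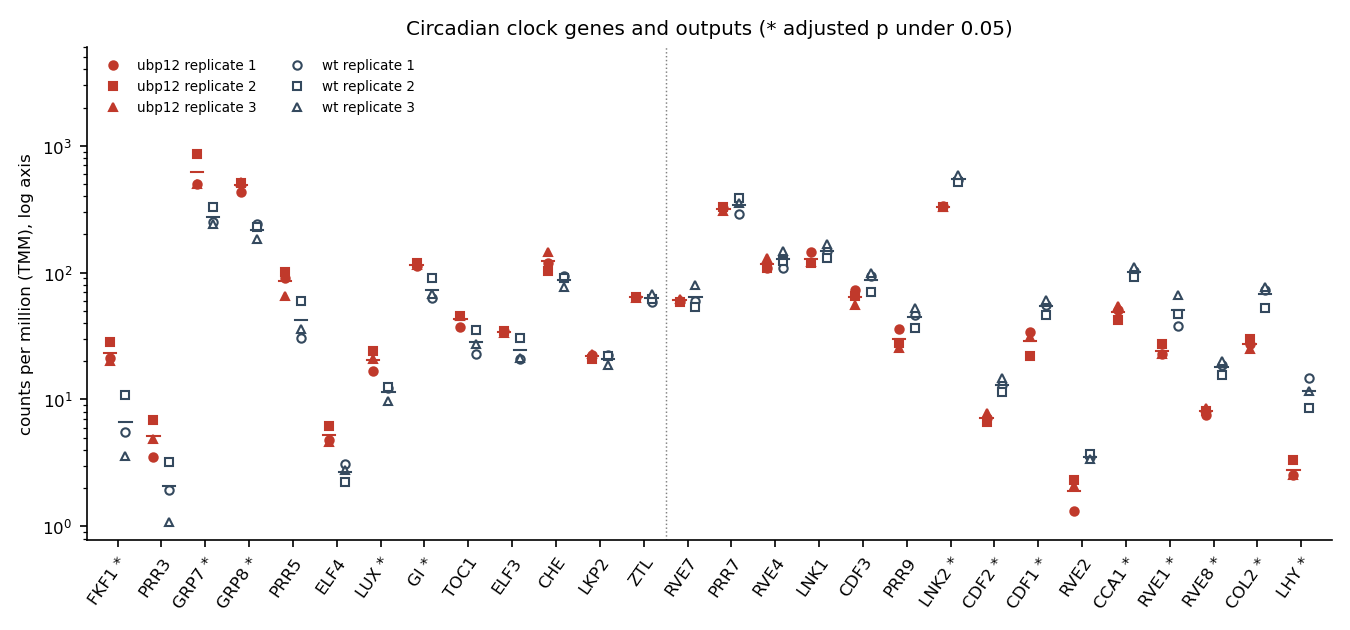
CPM (log axis) of the 28 tested clock genes and outputs in each library, ubp12 (filled) left of wt (open) for each gene, with bars at the means, genes ordered by log2FC and a dotted line between positive and negative values. Stars mark the 5 genes that rose and the 8 that fell at an adjusted p under 0.05, and LHY at the right end has 2.52 to 3.33 CPM in ubp12 and 8.61 to 14.6 CPM in wt.

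The clock pattern was seen in each ubp12 library, though in groups made after these same values were seen, so that it is not a separate check. The median difference of the 14 morning genes from the wt mean was -0.78, -0.80 and -0.76 in ubp12 replicates 1, 2 and 3, and 0.01, -0.20 and 0.18 in the wt libraries. For the 10 afternoon and evening genes it was 0.80, 1.19 and 0.79 in ubp12, and -0.11, 0.32 and -0.17 in wt. The wt libraries also differed among themselves, with replicate 2 lowest for the morning genes and highest for the evening genes, by less than ubp12 differed from wt. These transcripts change with the hour, and the hour of harvest within the 6 to 8 h window was not given per library. Without ubp12 replicate 1 or 3, 5 of the 8 morning genes fell, and these were the 5 that passed whichever library was left out: LHY, CCA1, RVE8, COL2 and LNK2. Of the genes that rose only GRP8 passed in every case, and their number was between 2, without wt replicate 3, and 7, without wt replicate 2.

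The jasmonate list, synthesis, signalling and response, had 3 of 33 tested members that rose and none that fell. Over all genes tested 1.08% rose and 0.706% fell. The median log2FC of the list was 0.38, and the ubp12 libraries were all above wt in 11 members (33.3%, beside 9.89%). JAZ1 (AT1G19180), a repressor that is itself induced by jasmonate, had 20.6, 13.7 and 22.6 CPM in ubp12, against 4.8, 6.39 and 4.01 CPM in wt. It was 3.69-fold higher (log2FC 1.88 ± 0.23 (SE), adjusted p = 0.00291) and passed whichever library was left out. LOX3 (AT1G17420), a lipoxygenase that makes a jasmonate precursor, had 44.2, 27.5 and 47.4 CPM in ubp12, against 18.6, 23.7 and 16.8 CPM in wt (log2FC 1.00 ± 0.20 (SE), adjusted p = 0.0369). AOC2 (AT3G25770), an allene oxide cyclase of the same route, had 113, 110.3 and 114 CPM in ubp12, against 83, 81.2 and 65.7 CPM in wt (log2FC 0.55 ± 0.11 (SE), adjusted p = 0.0346). LOX3 missed the threshold in 4 and AOC2 in 5 of the 6 fits without a library.

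Other jasmonate genes did not pass. MYC2 (AT1G32640), the main activator of jasmonate responses, had 123, 62.7 and 110.1 CPM in ubp12, against 35.9, 55.7 and 60.0 CPM in wt, above wt in all libraries (log2FC 0.97, adjusted p = 0.0834). VSP2 (AT5G24770), a storage protein induced by jasmonate and wounding, had 106, 64.6 and 145 CPM in ubp12, against 69.1, 51.4 and 76.2 CPM in wt, with overlapping groups (log2FC 0.68, adjusted p = 0.213). JAZ10 (AT5G13220), a JAZ gene sensitive to jasmonate, had 1.64, 0.689 and 1.94 CPM in ubp12, against 1.39, 1.23 and 1.54 CPM in wt (log2FC 0.02, adjusted p = 0.991). The per-library medians of the list were 0.30, 0.07 and 0.61 in ubp12 replicates 1, 2 and 3, so that replicate 2 was close to wt.

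TPS03 (AT4G16740), which makes the volatile terpene ocimene and is known to respond to jasmonate and wounding, had 49.2, 23.9 and 31.6 CPM in ubp12, against 2.99, 9.1 and 4.32 CPM in wt. All 3 ubp12 libraries were far above the highest wt library, replicate 2 of wt (log2FC 2.68 ± 0.36 (SE), adjusted p = 0.00515). By contrast, 2 other genes tied to jasmonate defence were among those with the largest fall. JRG21 (AT3G55970), a jasmonate-induced oxygenase, had 0.219, 0.115 and 0.447 CPM in ubp12, against 1.81, 1.11 and 1.39 CPM in wt, and its ubp12 libraries were at or under 3 counts each, so that it was at least 3.85-fold lower (adjusted p = 0.0441). PDF1.2b (AT2G26020), an antifungal defensin induced by jasmonate with ethylene, had 0, 0.23 and 0 CPM in ubp12, against 2.67, 4.8 and 0.617 CPM in wt, at least 7.21-fold lower against the floor of 3 counts (adjusted p = 0.0387).

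PDF1.2b is 1 of several close copies, and the others tested did not pass. PDF1.3 (AT2G26010) had 0, 0 and 0.298 CPM in ubp12, against 5.12, 21.1 and 0.771 CPM in wt (adjusted p = 0.0512), and PDF1.2 (AT5G44420) had 0.11, 0.803 and 0.298 CPM in ubp12, against 10.7, 7.26 and 0.154 CPM in wt (adjusted p = 0.0831). In each copy wt replicate 3 was low, near the ubp12 libraries, and wt replicates 1 and 2 were higher. All 3 passed the filter through wt only, and reads may be shared between the copies. PDF1.2b missed the threshold without any one ubp12 library and was not tested without wt replicate 1 or 2. In the same list ERF2 (AT5G47220), an ethylene response factor that activates GCC box genes, rose, with 42.9, 34.7 and 33.8 CPM in ubp12, against 19.2, 23.2 and 18 CPM in wt (log2FC 0.88 ± 0.13 (SE), adjusted p = 0.0113). HEL (AT3G04720), a basic chitin-binding PR protein, had 5.26, 7.8 and 5.36 CPM in ubp12, against 16.9, 11.9 and 7.09 CPM in wt (log2FC -0.98, adjusted p = 0.125).

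The list of rapid stress, calcium and touch responses, genes that move within minutes of a stimulus, had 2 of 16 tested members that rose and 1 that fell. Over all genes tested 1.08% rose and 0.706% fell. The median log2FC of the list was 0.85. ERF11 (AT1G28370), a repressor of the ethylene response factor family, had 6.36, 4.59 and 4.47 CPM in ubp12, against 0.427, 1.97 and 0.771 CPM in wt (log2FC 2.29 ± 0.41 (SE), adjusted p = 0.0221). ERF4 (AT3G15210), a related repressor, had 115, 48.9 and 69.9 CPM in ubp12, against 33.2, 38.5 and 34.1 CPM in wt, with replicate 1 well above the other ubp12 libraries (log2FC 1.15 ± 0.25 (SE), adjusted p = 0.0491). CML41 (AT3G50770), a calmodulin-like calcium sensor, fell, with 0.11, 0.344 and 0.596 CPM in ubp12, against 2.24, 2.71 and 1.08 CPM in wt (log2FC -2.60 ± 0.55 (SE), adjusted p = 0.0448). ERF4 and CML41 each missed the threshold in 5 of the 6 fits without a library, and ERF11 in 3. ERF11 passed the filter on low counts through ubp12 only, and CML41 through wt only.

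Other members of this list varied among the wt libraries. WRKY40 (AT1G80840), a fast stress-induced factor, had 69.6, 29.7 and 34.6 CPM in ubp12, against 9.81, 27.8 and 19.9 CPM in wt (log2FC 1.24, adjusted p = 0.135). SZF1 (AT3G55980), a zinc finger protein of salt stress, had 389, 171 and 257 CPM in ubp12, against 77, 195 and 122 CPM in wt (log2FC 1.05, adjusted p = 0.154). TCH4 (AT5G57560), a touch-induced xyloglucan enzyme, had 298, 157 and 384 CPM in ubp12, against 104, 421 and 195 CPM in wt (log2FC 0.22, adjusted p = 0.876). In these 3 genes wt replicate 2 was the highest and wt replicate 1 the lowest of the wt libraries. The per-library medians of the list were 1.25, 0.53 and 0.83 in ubp12, and -0.55, 0.54 and -0.03 in wt, so that ubp12 replicate 2 and wt replicate 2 were at the same level. Across the wider family of ERF and AP2 factors, 53 tested, 3 rose (ERF2, ERF4 and ERF11), none fell and the median log2FC was 0.26. Of all genes tested 1.08% rose.

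The salicylic acid list had 2 of 19 tested members that rose, both WRKY factors, beside 1.08% of all genes tested. WRKY53 (AT4G23810), a factor of senescence and defence, had 5.81, 3.56 and 8.19 CPM in ubp12, against 1.49, 2.34 and 0.925 CPM in wt (log2FC 1.82 ± 0.37 (SE), adjusted p = 0.0404). WRKY70 (AT3G56400), which sits between salicylic acid and jasmonate responses, had 169.5, 148 and 186 CPM in ubp12, against 121, 104 and 101 CPM in wt (log2FC 0.63 ± 0.12 (SE), adjusted p = 0.029). Marker genes of a salicylic acid response did not pass. PR2 (AT3G57260), an acidic glucanase, had 0.219, 0.23 and 0 CPM in ubp12, against 77.8, 2.34 and 0.463 CPM in wt, so that wt replicate 1 stood far above all other libraries and no difference was called (adjusted p = 0.111). PR5 (AT1G75040), a thaumatin-like protein, had 4.93, 8.95 and 4.02 CPM in ubp12, against 14.3, 3.44 and 1.7 CPM in wt (log2FC -0.18, adjusted p = 0.93), and ICS1 (AT1G74710), which makes salicylic acid, had 10.6, 13.4 and 11.9 CPM in ubp12, against 18.6, 16.7 and 17 CPM in wt (log2FC -0.54, adjusted p = 0.0694). The list of pattern-triggered immunity and camalexin had 0 of 10 members past the test, with a median log2FC of 0.35.

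**Figure D3:**
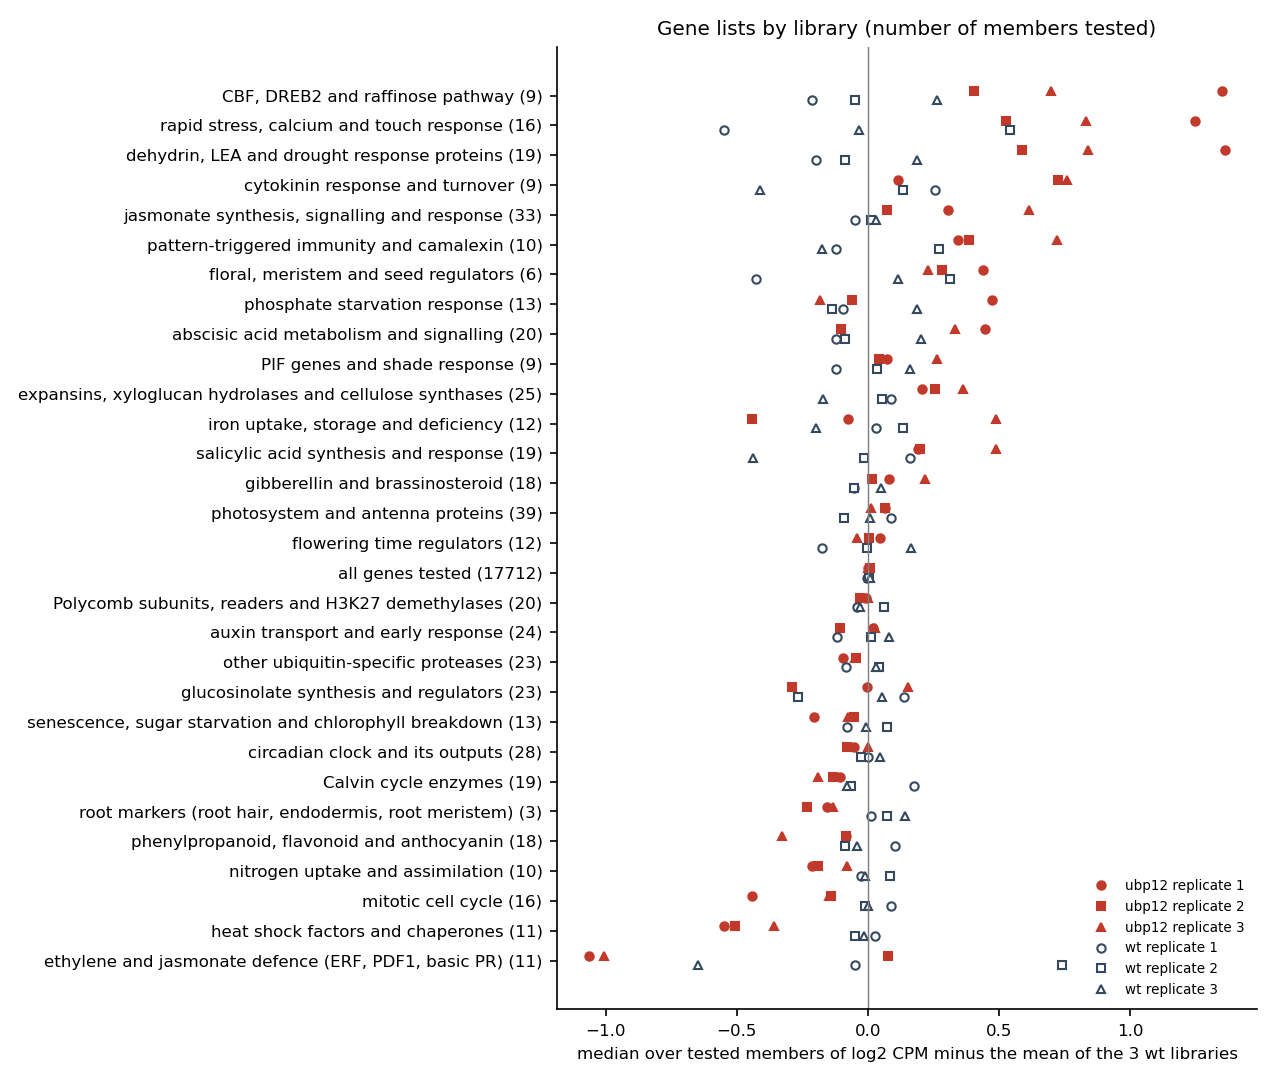
Median over the tested members of each list of the log2 CPM minus the mean of the 3 wt libraries (horizontal axis), for each ubp12 library (filled) above each wt library (open), with lists ordered by median log2FC and the number of members tested in brackets. The dehydrin list lies at 0.58 to 1.36 in ubp12 and at -0.20 to 0.19 in wt, and all genes tested lie near 0 in each library.

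The lists of Polycomb, histone, photosynthesis, heat shock and flowering genes had no member past the test. The Polycomb list, subunits, readers and H3K27 demethylases, had 0 of 20 members past the test and a median log2FC of -0.01, and the libraries separated by genotype in none of them. The 23 other ubiquitin-specific proteases tested had none past the test and a median of -0.03. Histone genes had 0 of 45 past the test, with the ubp12 libraries all above wt in 18 (40.0%, beside 9.89% of all genes tested) and a median of 0.14. The 39 photosystem and antenna genes had none past the test and a median of 0.05. The 19 Calvin cycle genes had none past the test, a median of -0.16, and in 6 of them (31.6%, beside 10.0%) all ubp12 libraries below all wt libraries. Heat shock factors and chaperones had 0 of 11 past the test and a median of -0.43, with 4 members (36.4%, beside 10.0%) all below wt. In the wider family of heat shock and DnaJ proteins 1 of 173 passed, where 1.08% of all genes tested rose and 0.706% fell. This was AT1G56300, a DnaJ-domain protein, which rose, with 88.6, 86.1 and 93.6 CPM in ubp12, against 36.1, 43.9 and 43.9 CPM in wt (log2FC 1.12 ± 0.11 (SE), adjusted p = 0.00162). Flowering time regulators had 0 of 12 past the test and a median of 0.02.

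Among hormone lists of growth, auxin had 2 of 24 members that rose, where 1.08% of all genes tested rose and 0.706% fell. IAA29 (AT4G32280), an auxin response repressor, had 12.3, 14.1 and 13.7 CPM in ubp12, against 5.66, 7.13 and 8.94 CPM in wt (log2FC 0.90 ± 0.17 (SE), adjusted p = 0.0318). PIN7 (AT1G23080), an auxin efflux carrier, had 143, 158 and 143 CPM in ubp12, against 110.0, 107 and 114 CPM in wt (log2FC 0.43 ± 0.09 (SE), adjusted p = 0.0491), and it missed the threshold whichever library was left out. The cytokinin list had 0 of 9 past the test and a median of 0.61, and gibberellin and brassinosteroid 0 of 18 and a median of 0.10. In the glucosinolate list 1 of 23 fell: MAM3 (AT5G23020), which lengthens the side chains of methionine-derived glucosinolates, had 0.987, 0.918 and 0.447 CPM in ubp12, against 3.73, 2.83 and 4.01 CPM in wt (log2FC -2.10 ± 0.33 (SE), adjusted p = 0.0129). In the cell wall list 1 of 25 fell: XTH24 (AT4G30270), a xyloglucan-modifying enzyme, had 30.6, 44.8 and 36 CPM in ubp12, against 66.6, 94.7 and 52.4 CPM in wt (log2FC -0.94 ± 0.20 (SE), adjusted p = 0.0484). Neither MAM3 nor XTH24 passed in all fits without a library, and MAM3 passed the filter on low counts through wt only.

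Of the 28 families by product name, 17 had a member past the test, and none had more than 4. Over all genes tested 1.08% rose and 0.706% fell. The LEA family, 33 tested, had 4 that rose and none that fell, among them NDR1 (AT3G20600), a membrane protein of disease resistance whose product name carries the LEA domain (log2FC 1.04 ± 0.21 (SE), adjusted p = 0.0404). GDSL lipases and esterases had 3 of 44 that rose, including ESM1 (AT3G14210), which turns glucosinolate breakdown towards isothiocyanates (log2FC 0.84 ± 0.14 (SE), adjusted p = 0.0171). UDP-glycosyltransferases had 3 of 85 that fell: UGT73B5 (AT2G15480), a stress-induced enzyme (log2FC -1.04 ± 0.21 (SE), adjusted p = 0.0369), the uncharacterised AT3G55710 (log2FC -1.02 ± 0.16 (SE), adjusted p = 0.0119) and GBSS1 (AT1G32900), the starch synthase that makes amylose (log2FC -0.64 ± 0.12 (SE), adjusted p = 0.0301). GBSS1 was counted in this family by its product name alone. WRKY factors had 2 of 39 that rose. MYB factors had 1 of 77 that rose and 1 that fell, close to the shares over all genes tested. The MYB factor that rose, MYB47 (AT1G18710), had 40.7, 16.4 and 37.2 CPM in ubp12, against 11.8, 10.2 and 11.6 CPM in wt (log2FC 1.48 ± 0.29 (SE), adjusted p = 0.0322). Leucine-rich repeat kinases (122 tested), NAC factors (50), bHLH factors (79), F-box proteins (165) and MADS-box factors (21) had none past the test.

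The genes with the largest changes were a mixed set, and several were barely expressed in one genotype. AT3G28915, annotated as a pseudogene at chr3:10917551-10922630, had 2.41, 4.48 and 4.32 CPM in ubp12, against 0, 0 and 0.154 CPM in wt, and against the floor of 3 counts in wt it was at least 9.73-fold higher (adjusted p = 0.00238). AT1G69140, a transcribed pseudogene at chr1:25991371-25992018, had 33.1, 24.4 and 132 CPM in ubp12, against 1.17, 5.54 and 2.16 CPM in wt, with replicate 3 of ubp12 far above the others (log2FC 4.40 ± 0.73 (SE), adjusted p = 0.0158), and it missed the threshold without wt replicate 3. AT4G29610, a cytidine deaminase family gene, had 18.8, 12.3 and 12.7 CPM in ubp12, against 1.71, 4.43 and 1.39 CPM in wt (log2FC 2.52 ± 0.33 (SE), adjusted p = 0.00499). AT1G11210, of unknown function (DUF761), had 15.7, 12.2 and 14.8 CPM in ubp12, against 2.45, 3.08 and 1.85 CPM in wt (log2FC 2.50 ± 0.20 (SE), adjusted p = 0.00089). In these last 2 genes the lowest ubp12 library was well above the highest wt library.

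Further genes among the 12 largest increases were AT1G51090, a heavy metal transport domain gene (log2FC 2.11), AT4G04223, a non-coding RNA (2.28), and AT1G80130, a tetratricopeptide repeat protein (2.30). All 3 had ubp12 libraries above the wt range, and AT1G80130 missed the threshold without ubp12 replicate 1. The others in this set, LTI65, TPS03, KIN1, KIN2 and ERF11, are described above.

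On the side of the falls, AT4G16260, a glucanase family gene, had 0, 0.23 and 0 CPM in ubp12, against 2.67, 3.2 and 0.925 CPM in wt, at least 6.06-fold lower against the floor of 3 counts in ubp12 (adjusted p = 0.0208). AT2G05995, a non-coding RNA at chr2:2325776-2326876, had 1.86, 1.03 and 1.34 CPM in ubp12, against 9.18, 8.49 and 7.71 CPM in wt (log2FC -2.56 ± 0.24 (SE), adjusted p = 0.0015). AT3G29644, a long non-coding RNA, had 1.1, 1.15 and 1.34 CPM in ubp12, against 4.37, 4.8 and 4.93 CPM in wt (log2FC -1.97 ± 0.24 (SE), adjusted p = 0.00331). CAX3 (AT3G51860), a vacuolar calcium and proton exchanger, had 2.19, 1.38 and 2.09 CPM in ubp12, against 7.79, 8.36 and 6.78 CPM in wt (log2FC -2.02 ± 0.23 (SE), adjusted p = 0.00238). These last 3 passed whichever library was left out, and AT4G16260 missed the threshold without ubp12 replicate 1 or 3 and was not tested without wt replicate 1 or 2. AT3G23550, a MATE efflux protein, had 0.877, 2.52 and 1.49 CPM in ubp12, against 7.68, 13.9 and 3.7 CPM in wt, with a wide spread in wt (log2FC -2.38 ± 0.48 (SE), adjusted p = 0.0393). AT3G22961 (log2FC -2.27) and AT3G47480, a calcium-binding EF-hand protein (log2FC -1.99), were low and each lost the call in at least 4 of the 6 fits without a library.

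Some genes outside the lists passed the adjusted p whichever library was left out, and those named here were chosen after their values were seen. OXS3 (AT5G56550), a nuclear protein of oxidative stress tolerance, had 13.3, 18 and 17.6 CPM in ubp12, against 34.1, 48.8 and 56.9 CPM in wt (log2FC -1.51 ± 0.19 (SE), adjusted p = 0.0034). HYH (AT3G17609), the bZIP homolog of HY5 in light signalling, had 4.06, 3.79 and 3.87 CPM in ubp12, against 9.49, 10.6 and 9.56 CPM in wt (log2FC -1.33 ± 0.16 (SE), adjusted p = 0.00291). CSD2 (AT2G28190), the chloroplast copper/zinc superoxide dismutase, had 11.3, 14 and 13.1 CPM in ubp12, against 28.8, 27.9 and 25.1 CPM in wt (log2FC -1.10 ± 0.12 (SE), adjusted p = 0.00238). In these 3 genes all ubp12 libraries were below all wt libraries. SWEET2 (AT3G14770), a sugar transporter of the vacuole, had 11.8, 13.9 and 12.1 CPM in ubp12, against 24.8, 29.9 and 25.9 CPM in wt (log2FC -1.09 ± 0.12 (SE), adjusted p = 0.00241), and NAS1 (AT5G04950), which makes the metal chelator nicotianamine, had 8.44, 6.31 and 7.15 CPM in ubp12, against 15.6, 14.8 and 14.8 CPM in wt (log2FC -1.04 ± 0.14 (SE), adjusted p = 0.00655).

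Among such genes that rose, UCP5 (AT2G22500), a mitochondrial dicarboxylate carrier, had 34.8, 26.1 and 25.8 CPM in ubp12, against 9.07, 13 and 7.86 CPM in wt (log2FC 1.52 ± 0.19 (SE), adjusted p = 0.00331). IGMT5 (AT1G76790), a methyltransferase of indole glucosinolates, had 7.67, 9.985 and 8.64 CPM in ubp12, against 2.45, 2.95 and 2.93 CPM in wt (log2FC 1.66 ± 0.19 (SE), adjusted p = 0.00258). MBP1 (AT1G52040), a myrosinase-binding protein, had 21.8, 22 and 20.3 CPM in ubp12, against 11.3, 9.47 and 8.48 CPM in wt (log2FC 1.12 ± 0.13 (SE), adjusted p = 0.00291). None of these 3 overlapped with wt in any library. AT4G30650, named a low temperature and salt responsive protein, had 45.6, 44.3 and 36.2 CPM in ubp12, against 15.3, 18.2 and 16.6 CPM in wt (log2FC 1.34 ± 0.12 (SE), adjusted p = 0.0015), and OEP16-1 (AT2G28900), a channel of the outer plastid envelope, had 198, 205 and 170.1 CPM in ubp12, against 77.1, 96.9 and 77.2 CPM in wt (log2FC 1.19 ± 0.12 (SE), adjusted p = 0.0023).

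Consistency over the libraries differed between genes. All 317 genes that passed the adjusted p had ubp12 and wt libraries that did not overlap. Over all genes tested the ubp12 libraries were all above wt in 9.89% and all below in 10.0%. The test selects genes by the gap between these same libraries, so the lack of overlap adds nothing to it. Among the 83 genes called higher, the median log2 difference from the wt mean was 1.42 in ubp12 replicate 1, 1.17 in replicate 2 and 1.30 in replicate 3, and 50 of the 83 had their smallest change in replicate 2. Among the 38 called lower the medians were -1.28, -1.21 and -1.30, with the smallest change in replicate 1 for 8, in replicate 2 for 16 and in replicate 3 for 14. Of the genes called higher, 27 were called again whichever library was left out, and 12 of those called lower. The number called higher was 37 without ubp12 replicate 1, 44 without replicate 3 and 37 without wt replicate 3, and 125 without ubp12 replicate 2 or wt replicate 2, with 71 without wt replicate 1. The number called lower was 18 without ubp12 replicate 1 or 3, 27 without wt replicate 3, 33 without ubp12 replicate 2, 32 without wt replicate 2 and 49 without wt replicate 1. Of the genes called, 3 higher and 7 lower had passed the filter on low counts through 1 genotype only. Among them were LTI65, ERF11, AT3G28915, PDF1.2b, JRG21, CML41, MAM3 and AT4G16260.

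**Figure D4:**
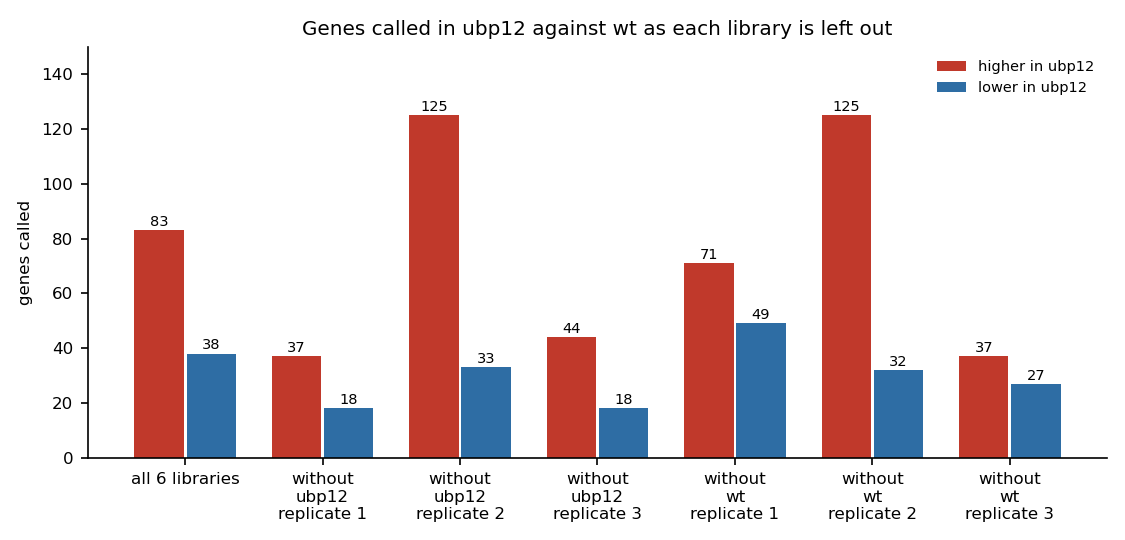
Number of genes called higher (red) and lower (blue) in ubp12 with all 6 libraries and with each library left out, by edgeR's quasi-likelihood test. The number called higher is 83 with all libraries and lies between 37 and 125 when 1 library is left out, and the number called lower is 38 and lies between 18 and 49.

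Around the insertion, 66 annotated genes lie within 100 kb of UBP12, and 42 were tested. Apart from UBP12, 1 of them passed, where 1.08% of all genes tested rose and 0.706% fell. This was NHL3 (AT5G06320), a membrane protein of the defence response, with 241, 115 and 195 CPM in ubp12, against 61.8, 108 and 63.5 CPM in wt (log2FC 1.24 ± 0.27 (SE), adjusted p = 0.0491). It missed the threshold in 4 of the 6 fits without a library.

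The ubp12 libraries were also compared with the 3 libraries labelled ubp13, which leaves the wt libraries aside but uses the same ubp12 libraries. The total of UBP13 reads was not lower under that label, and the paper describes the allele, ubp13-3, as weak. After scaling over the 12 libraries UBP13 had 59, 64.1 and 62.1 CPM in ubp12, 149, 171 and 153 CPM in the libraries labelled ubp13, 77.9, 78.4 and 80.9 CPM in those labelled ubp12/13 and 62.6, 63.3 and 63.6 CPM in wt. It was thus highest in the libraries labelled ubp13 and not below wt in those labelled ubp12/13, and a total per gene holds no position along the transcript, so reads up- and downstream of the insertion were not separated. UBP12 itself had 26.1, 23.3 and 27.4 CPM in ubp12, 94.6, 92.1 and 88.5 CPM in the libraries labelled ubp13, 33.9, 27.1 and 36.3 CPM in those labelled ubp12/13 and 99.8, 101 and 95.8 CPM in wt on the same scale, and was lower in ubp12 than in the libraries labelled ubp13 (log2FC -1.84 ± 0.10 (SE), adjusted p = 3.6e-05). By the adjusted p alone 18 genes were higher in ubp12 than in the libraries labelled ubp13 (0.102% of 17620 tested) and 12 lower (0.0681%). Of the dehydrin list 0 of 19 members passed, with a median log2FC of 0.62 of ubp12 over the libraries labelled ubp13, and 18 of 19 above 0. Of the clock list 0 of 29 passed. The 14 morning genes had a median of -0.44 with 2 above 0, and the 10 afternoon and evening genes a median of 0.58 with 9 above 0. No single gene of either list differed past the test in this comparison.

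JAZ1 was higher in ubp12 than in the libraries labelled ubp13 (log2FC 1.91 ± 0.29 (SE), adjusted p = 0.0415), with 20.9, 13.8 and 22.9 CPM in ubp12, 4.1, 3.45 and 8.04 CPM in the libraries labelled ubp13, 57.6, 52.4 and 70.9 CPM in those labelled ubp12/13 and 4.91, 6.49 and 4.05 CPM in wt after scaling over the 12 libraries. TPS03 was too (log2FC 2.12 ± 0.24 (SE), adjusted p = 0.00793), with 49.99, 24.2 and 32 CPM in ubp12, 7.69, 9.43 and 7.43 CPM in the libraries labelled ubp13, 2.57, 2.72 and 1.82 CPM in those labelled ubp12/13 and 3.05, 9.24 and 4.36 CPM in wt. JAZ1 was thus highest in the libraries labelled ubp12/13, and the 3 ubp12 libraries of TPS03 lay above all others. ERF2 (log2FC 1.01 ± 0.16 (SE), adjusted p = 0.0417), MBP1 (log2FC 1.43 ± 0.16 (SE), adjusted p = 0.00714), AT1G11210 (log2FC 1.66 ± 0.20 (SE), adjusted p = 0.00955), AT4G29610 (log2FC 1.57 ± 0.24 (SE), adjusted p = 0.0452) and AT3G28915 (adjusted p = 0.00221) also passed, each higher in ubp12. Of the 12 genes lower in ubp12, the 5 with the lowest adjusted p were AT5G35935, UBP12, UBP13, AT3G14172 and AT2G44970. AT5G35935, a pseudogene by its annotation, had 0.111, 0.349 and 0.302 CPM in ubp12, against 10.6, 10.5 and 12.9 CPM in the libraries labelled ubp13 (adjusted p = 3.6e-05), and it was at 0 to 0.156 CPM in wt, so that the libraries labelled ubp13 stood apart. UBP13 was lower in ubp12 (log2FC -1.35 ± 0.09 (SE), adjusted p = 0.000244), with the values given above. AT3G14172 had 21.2, 26.4 and 20.8 CPM in ubp12, against 61.8, 63.7 and 62.9 CPM in the libraries labelled ubp13 (adjusted p = 0.000349), while wt had 18.9 to 20.1 CPM. AT2G44970 (log2FC -1.44, adjusted p = 0.00385) and AT3G29644 (log2FC -2.03 ± 0.22 (SE), adjusted p = 0.00714) were lower in ubp12 than in both the libraries labelled ubp13 and wt.

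For the genes of the lists, the values in the 4 genotypes stand side by side, and the comparisons of the mutants with wt share the wt libraries. COR15A had 161, 61 and 115 CPM in ubp12, 35.2, 30.0 and 89.9 CPM in the libraries labelled ubp13, 182, 149 and 192 CPM in those labelled ubp12/13 and 23.8, 27.1 and 35.7 CPM in wt. KIN2 had 204, 134 and 176 CPM in ubp12, 64, 65.7 and 142 CPM in the libraries labelled ubp13, 224, 178 and 259.6 CPM in those labelled ubp12/13 and 34.5, 36.7 and 57.6 CPM in wt. In both genes the ubp12 libraries lay above wt and overlapped the range of those labelled ubp12/13, and replicate 3 of those labelled ubp13 lay above the lowest ubp12 library. FKF1 had 21.7, 28.5 and 20.2 CPM in ubp12, 5.72, 12 and 5.7 CPM in the libraries labelled ubp13, 32.2, 31.6 and 26.3 CPM in those labelled ubp12/13 and 5.67, 11 and 3.58 CPM in wt. LHY had 2.56, 3.37 and 2.56 CPM in ubp12, 8.12, 8.08 and 4.99 CPM in the libraries labelled ubp13, 1.81, 5.15 and 5.83 CPM in those labelled ubp12/13 and 14.9, 8.74 and 11.8 CPM in wt. For LHY the libraries labelled ubp13 lay between those of ubp12 and wt, and for FKF1 they overlapped the wt libraries.

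**Figure D5:**
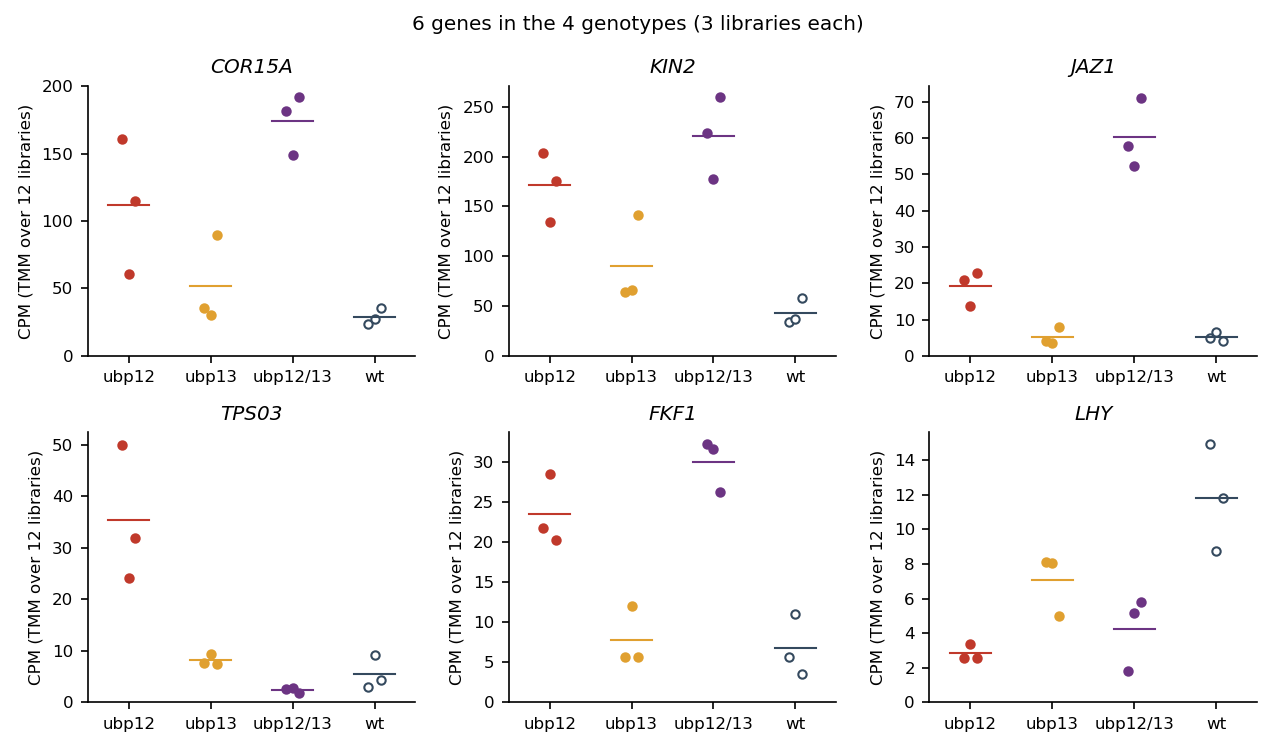
CPM after TMM scaling over 12 libraries of 6 genes chosen after their values were seen, in the libraries labelled ubp12, ubp13, ubp12/13 and wt, with a point for each library and a bar at the mean. JAZ1 has 13.8 to 22.9 CPM in ubp12 and 4.05 to 6.49 CPM in wt, and TPS03 is higher in the 3 ubp12 libraries than in all others.

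Peaks of H2Aub1 increase in rosettes labelled ubp12/13, 1285 in all, gave a readout that the RNA comparison did not use, though of another genotype and tissue. A peak lay over the first 1 kb of 3 of the 83 genes called higher (3.61%), 1 of the 38 called lower (2.63%) and 331 of 17699 genes tested (1.87%). The 3 genes called higher were TPS03, the ubiquitin ligase gene PUB18 (AT1G10560, log2FC 1.42) and AT1G24140, a matrix metalloproteinase gene (log2FC 1.96), and the gene called lower was JRG21. At TPS03 the peaks spanned chr4:9406860-9408661 and chr4:9410294-9411163 of TAIR10, over the start and the end of the gene. In the seedling RNA labelled ubp12/13, the genotype of the peaks, TPS03 lay below the wt libraries, as given above. None of the 19 tested members of the dehydrin list or the 28 of the clock list lay under a peak in its first 1 kb. With a share of 1.87% over all genes tested, few or none would be found in lists this short.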

How the data were processed

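RNA of whole seedlings was sequenced from TruSeq v2 libraries, which do not mark strand. Per the labels and methods, the authors trimmed reads with cutadapt 1.18, aligned them to TAIR10 with TopHat2, kept well-mapped reads and made raw counts per gene with HTSeq 0.11.1, and these counts were deposited per library. Organelle IDs were left out here. The counts were analysed in R 4.3.3 with edgeR 4.0.16 (TMM, quasi-likelihood test, Benjamini-Hochberg adjustment over all genes tested) on the 3 ubp12 and 3 wt libraries, and ubp12 against the libraries labelled ubp13 likewise. Genes were matched to the RefSeq TAIR10.1 annotation, which held 32835 of the 33323 nuclear IDs. Reads of close copies may be split or lost.

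The genotypes, lists and families were chosen with earlier results of these data known. Genes were named by rule: UBP12 and UBP13, the 12 largest increases and 12 largest decreases among genes called with all ubp12 libraries outside the wt range, up to 4 members past the adjusted p in each list or family, and genes past it within 100 kb of UBP12. Other genes named were chosen after their values were seen.

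Alternatives were DESeq2 1.42.0, RLE scaling or library totals, a stricter filter and none, thinned counts, organelle genes kept, a fit of all 12 libraries, a replicate block and leaving out each library. The test was tried on simulated counts first. Lists carry no test of their own and are given by counts and medians. The deposited peak list, made by the authors from both ChIP replicates combined, holds positions and a constant score of 1 that was not used. Figures were drawn with Matplotlib 3.10.9.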

Additional observations from a re-analysis of the deposited data

How the results depend on the processing

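With each library left out in turn, the genes called numbered 37 to 125 higher and 18 to 49 lower, and those past the adjusted p alone 56 to 234 higher and 27 to 156 lower. Of the dehydrin list 6 to 11 members rose in these fits, and of the clock list 2 to 7 rose and 5 to 8 fell. Without a filter on low counts, 130 genes were called higher and 71 lower, 375 rose and 240 fell by the adjusted p alone, and 9 clock genes rose. The cause of these differences was not tested, except that each fit without a library has fewer samples and the fit without a filter tests more genes. Between ubp12 and the libraries labelled ubp13, DESeq2 put 109 genes higher and 55 lower at an adjusted p under 0.05, and the cause was not tested. The other alternatives left these counts within 1.5 times. Of 344 genes followed, none that was called changed direction under any alternative. Fewer kept their place past the threshold. Of the 83 genes called higher 45, and of the 38 called lower 21, passed the adjusted p under all 9 alternatives that kept every library. A gene that a stricter filter left untested counts here as not passing. Replicate numbers did not pair the libraries, with correlations of same-numbered deviations of -0.001, -0.048 and -0.032, and with the replicate number as a block 78 genes were called higher and 46 lower. Genes near 1 CPM rest on few reads at this depth, and changes in them may be missed.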
